A study of Drosophila melanogaster with 12 samples.

Results

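The copper and zinc transport genes are 8 genes of Drosophila melanogaster, chosen by name for their roles in metal handling. They are the copper importer genes Ctr1A, Ctr1B and Ctr1C, the copper exporter gene ATP7, the copper chaperone gene Ccs, the metal sensor gene MTF-1, and the zinc transporter genes ZnT35C and ZnT63C. Each was matched by its FlyBase symbol to 1 identifier. Of the 8 genes, 7 have a row among the 12986 genes of the RNA-seq table and all 7 passed the filter on low counts, which left 8165 genes. RNA of Ctr1C was not analysed here. In the ChIP-seq table of 13924 genes all 8 have a row.

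The study used S2 cells, an established Drosophila line of embryonic origin with features of hemocytes, the blood cells of the fly. It asked what the SWI/SNF ATPase BRM does to transcription and how much of this needs its ATPase activity. There were 4 RNA-seq groups of 2 biological replicates each, and all of them received dsRNA for 48 h. Control cells received dsRNA against GFP, and BRM-depleted cells received dsRNA against BRM. Both groups carry the plasmid label "empty", whereas the study's methods name control S2 cells apart from the stably transfected lines. Whether these 2 groups held an empty plasmid is therefore not known. The recBRM-V5 cells were a stably transfected line that expressed V5-tagged wild-type BRM from a metallothionein promoter, and the recBRM-K804R-V5 cells expressed the ATPase-dead K804R protein in the same way. Both lines also received dsRNA against BRM, and copper sulfate for the last 24 h as inducer of the plasmid. According to the study's scheme, copper was given only with the recombinant lines. Copper, plasmid and line therefore cannot be told apart in any comparison of a recombinant line with control or BRM-depleted cells. The 2 lines had copper in common and differ in the protein they express and in being separately made lines. Whether a line is a clone or a pool is not given in the sources used here. The ChIP-seq experiment had 2 replicates of immunoprecipitated DNA (IP) obtained with an antibody against endogenous BRM, and 2 of Input DNA. Whether these cells received copper is not given either.

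In animals, copper enters cells through trimeric Ctr1 channels in the plasma membrane and is handed to chaperones, since free copper ions damage proteins and lipids. Ccs delivers copper to the superoxide dismutase Sod1, and the P-type ATPase ATP7 pumps copper into the secretory pathway or out of the cell. In flies, Ctr1A is the main importer, Ctr1B serves copper uptake when copper is scarce, and Ctr1C is known mostly from the male germ line. ZnT proteins move zinc out of the cytoplasm, and ZnT35C and ZnT63C belong to this family of exporters. MTF-1 is a zinc finger factor that binds metal response elements, short DNA motifs with the core TGCACNC or TGCGCNC, and activates metallothionein genes when copper, zinc or cadmium is high. In flies it also activates Ctr1B when copper is scarce.

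The positions of the genes, in the BDGP6 assembly, are as follows. Ctr1A lies on the forward strand of chromosome X at chrX:6661647-6668258, and ATP7 on the same strand at chrX:11855022-11864754. Ctr1B lies at chr3R:8317612-8319205 on the forward strand, and Ctr1C at chr3R:30963290-30964320 on the reverse strand. Ccs lies at chr2R:10121486-10122574 on the reverse strand. MTF-1 spans chr3L:9430312-9439490 and ZnT63C chr3L:3303708-3314009, both on the forward strand. ZnT35C spans chr2L:15228728-15247714 on the reverse strand.

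Counts cover the exons of these genes, and some share exonic sequence with other genes. Exons of Ctr1B share 185 bases with an RNA gene on the same strand, lncRNA:CR45215, and exons of MTF-1 share 467 bases with asRNA:CR45872, also on the same strand. Neither of these RNA genes was analysed here, so their reads cannot be told apart from those of Ctr1B and MTF-1. Genes on the opposite strand overlap exons of Ctr1B (Poxm, 181 bases), ATP7 (Nrd1, 104 bases) and MTF-1 (Bet3, 867 bases, and CG42526, 251 bases). The counting options are not stated. Poxm had at most 2 counts in any library.

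Upstream sequence was read from the RefSeq Release 6 genome at the annotated start of each gene. It was searched for the metal response element core, spelled TGCACNC or TGCGCNC, on both strands. A single start was used per gene, at the outer end of the annotated gene. MTF-1 and ZnT63C have 7 annotated transcripts each and Ctr1A has 4, and any other starts were not searched. In the window from 250 bases before to 50 bases after the start, Ctr1A held 4 matches and ZnT35C held 1, whereas the other 6 genes held none. At least 1 match was found in 18.7% of the 13968 windows of protein-coding genes, and 4 or more in 0.0931%, which is 13 windows. Counting from the annotated start, the matches of Ctr1A began at -244, -174, -171 and -40. Those at -174 and -171 overlap each other, since the letters read on both strands. The match of ZnT35C began at -94. The 250 bases before the start of each gene are shown here because Ctr1A and ZnT35C were the only members with a match in this window. Capitals mark the matches.
Ctr1A (chrX:6661397-6661646, forward strand): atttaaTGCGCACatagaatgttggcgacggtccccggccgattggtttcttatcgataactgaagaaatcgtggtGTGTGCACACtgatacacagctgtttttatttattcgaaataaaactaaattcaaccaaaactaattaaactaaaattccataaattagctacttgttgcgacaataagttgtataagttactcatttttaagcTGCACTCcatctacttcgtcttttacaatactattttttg
ZnT35C (chr2L:15247715-15247964, reverse strand): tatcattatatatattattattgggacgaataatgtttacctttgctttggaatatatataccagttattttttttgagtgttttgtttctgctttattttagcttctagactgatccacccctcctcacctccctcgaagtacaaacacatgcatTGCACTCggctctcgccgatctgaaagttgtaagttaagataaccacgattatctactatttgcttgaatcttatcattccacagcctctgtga

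The stretch shown for Ctr1A overlaps exons of its neighbour CG3224, and the one of ZnT35C overlaps no annotated exon. A window from 1000 bases before to 50 bases after the start was added after seeing these data. There, Ctr1A held 5 matches, Ctr1B 4, ZnT35C 3, ATP7 2 and Ccs 1, and Ctr1C, MTF-1 and ZnT63C held none at the start used. Windows of this length held at least 1 match in 52.8% of 13967 protein-coding genes and 4 or more in 2.21%. The 4 matches of Ctr1B began at -734, -675, -654 and -354, and the 3 that lie close together are shown in the 150 bases that hold them, again with the matches in capitals.
Ctr1B (chr3R:8316862-8317011, forward strand): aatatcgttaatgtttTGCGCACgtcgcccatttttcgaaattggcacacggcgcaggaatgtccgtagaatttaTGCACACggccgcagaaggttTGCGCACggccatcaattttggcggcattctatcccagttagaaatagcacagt

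This stretch overlaps exons of lncRNA:CR45215. A TATAAA box on the gene strand was found in the short window of MTF-1 and of no other member, beside 32.1% of all windows. These matches are a description of letters, and whether any protein binds them was not measured.

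**Figure D1:**
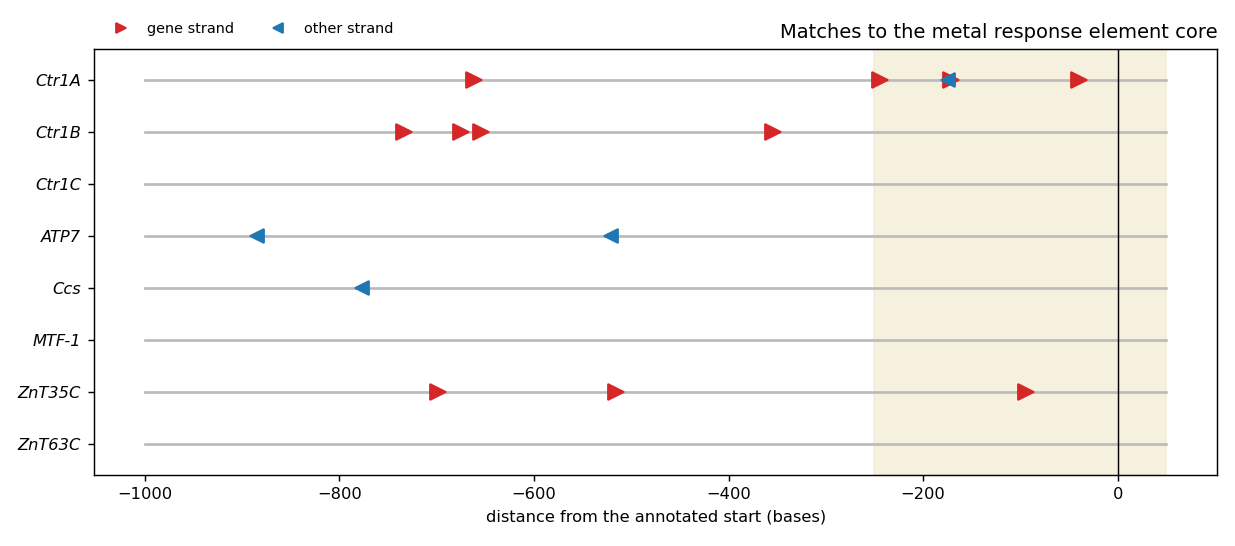
Matches to the metal response element core around the annotated start used for each of the 8 genes. The x axis gives the distance from the start in bases, each grey line is the window from 1000 bases before to 50 bases after it, triangles point along the strand of the match, and the shaded band starts 250 bases before the start. Ctr1A and ZnT35C have matches in the shaded band, Ctr1B has 4 farther upstream, and Ctr1C, MTF-1 and ZnT63C have none.

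Total counts ranged from 6600562 to 10287294 per RNA-seq library, and replicates of each group differed by more than counting noise. The targeted gene brm was at 439 ± 8.75 CPM in control cells and at 175 ± 1.40 CPM in BRM-depleted cells (SD, n = 2), where CPM are counts scaled by the library total and the TMM factor. The libraries did not overlap and the log2 fold change of brm was -1.32 ± 0.26, but it did not pass the test over all genes (edgeR, unadjusted p = 0.00101, adjusted p = 0.468). The brm row also counts the recombinant RNA, and it stood at 16622 and 24866 CPM with recBRM-V5 and at 2117 and 2004 CPM with recBRM-K804R-V5. The 2 lines thus differed 10.1-fold in brm RNA (edgeR quasi-likelihood test, Benjamini-Hochberg adjusted p = 0.00126). MtnA, the metallothionein gene whose promoter type drives the plasmids, was at 188 to 223 CPM in the 4 libraries without recombinant protein and at 5235 to 10160 CPM in the 4 with it. All 6 hemocyte markers looked at were detected. Their summed level was 1979 to 2335 CPM in control and BRM-depleted libraries, 1839 to 2757 CPM in recBRM-V5 libraries and 1177 to 1393 CPM in recBRM-K804R-V5 libraries. Some of the markers did not move alike in the 2 lines. Against control cells, NimC1 (log2 fold change 6.97), a phagocytosis receptor gene, He (3.17) and Pxn (1.47) were higher with recBRM-V5, whereas with recBRM-K804R-V5 Pxn was lower (-0.74) and He (-1.33) and NimC1 (1.46) were not called. Hml was lower in both (-1.78 and -3.68). The remaining markers moved alike in the lines. For srp the values were -0.64 with recBRM-V5 (called) and -0.59 with recBRM-K804R-V5 (not called), and crq was at 0.32 in both and not called, all by edgeR. The part of such differences between lines in the results on metal genes was not tested. The ovarian marker tj had no count in 7 of the 8 libraries, while the neural marker elav had 280 to 790 counts.

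In control cells, the members covered a wide range of levels. Per kilobase of exon, Ctr1A was highest at 33.0 ± 1.83 CPM (SD, n = 2), and ZnT63C followed at 31.7 ± 1.38 CPM, which is within the spread of Ctr1A. Ccs stood at 20.5 ± 2.67, MTF-1 at 16.4 ± 1.35 and ATP7 at 11.8 ± 1.37 CPM per kilobase. The importer gene Ctr1B was far lower at 1.62 ± 0.416 CPM per kilobase. ZnT35C had 0 counts in control replicate 1 and 1 count in replicate 2, at a floor of 3 counts per library or 0.328 and 0.368 CPM. Below this floor, no level could be given. The genes of copper uptake, zinc export, metal sensing and copper delivery to Sod1 were thus detected in control cells, and ZnT35C RNA was not detectable at this depth.

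Of the 7 members tested, 5 rose in recBRM-V5 cells against control cells and none fell. They were Ctr1A, Ctr1B, ATP7, ZnT35C and ZnT63C. ZnT35C was too rare to pass the filter without the recombinant libraries, so that it could only differ in their direction. Leaving it aside, 4 of 6 members rose. Over all genes tested, 10.9% were called higher and 7.24% lower in this comparison. The median log2 fold change of the members was 0.67, and that of all genes tested was 0.00. In recBRM-K804R-V5 cells, 4 members rose and none fell, namely Ctr1B, ATP7, ZnT35C and ZnT63C, or 3 of 6 without ZnT35C, beside 6.34% of all genes called higher and 4.15% called lower. The medians were 0.66 and 0.01. Neither median is set by ZnT35C, whose fitted change depends on counts near 0. Called means a Benjamini-Hochberg adjusted p under 0.05 in edgeR's quasi-likelihood test of all 8 libraries. Since both comparisons use the same 2 control libraries, they are not independent. Each count depends on single libraries. Where leaving out a library left 1 member, that member was ZnT35C, whose direction was fixed by the filter. The 5 genes in recBRM-V5 cells became 1 without control replicate 1 or 2 and 3 without BRM-depleted replicate 1 or 2. The 4 genes in recBRM-K804R-V5 cells became 0 without control replicate 1 and 1 without control replicate 2 or recBRM-K804R-V5 replicate 2. A group left with 1 library was assumed to vary like the others.

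Both recombinant lines were pooled against control and BRM-depleted cells, a contrast in which copper, plasmid and line go together with the groups. In addition, dsRNA against BRM was given to both lines but not to control cells. In this contrast, 6 of the 7 members rose and none fell. The exception was Ccs, and without ZnT35C the count was 5 of 6. All genes tested were called higher in 15.4% of cases and lower in 12.2%. With library size alone as the scaling, this balance turned from 1257 higher and 993 lower to 1084 higher and 1274 lower. The 4 recombinant libraries lay above the 4 other libraries for the same 6 members, beside 14.1% of all genes. The median log2 fold change was 0.76 in the members and 0.04 in all genes. Leaving out single libraries gave 5 or 6 members. Of the members, 4 (Ctr1A, Ctr1B, ATP7 and ZnT63C) belong to the 7 genes that the study set aside as copper genes, and all 7 rose in this contrast. That list was the study's choice and is not independent evidence of the direction.

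**Figure D2:**
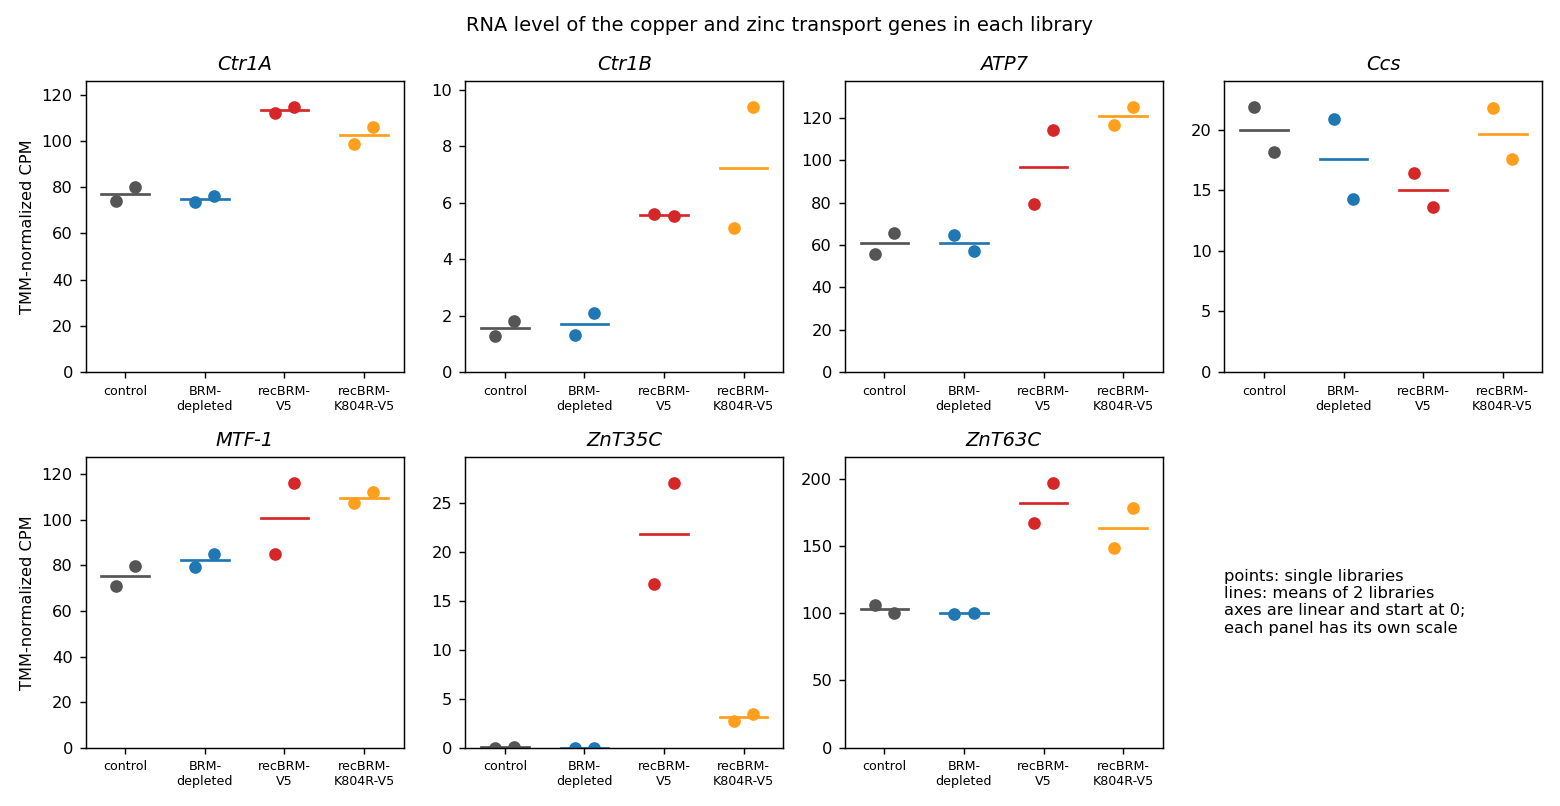
RNA level of the 7 members in each RNA-seq library. The y axes give TMM-normalized CPM on linear scales that start at 0, points are single libraries and lines are means of 2 libraries. For all members but Ccs, the 4 libraries of the recombinant lines lie above the 4 libraries of control and BRM-depleted cells, and ZnT35C rises from 0 or 1 count.

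Among the copper importers, Ctr1A was at 74.0 and 80.0 CPM in control cells and at 73.7 and 76.3 CPM after depletion of BRM. It was at 112 and 114.5 CPM with recBRM-V5 and at 98.8 and 106 CPM with recBRM-K804R-V5. All 4 recombinant libraries were above all 4 others. The log2 fold change against control cells was 0.56 ± 0.13 (standard error) in recBRM-V5 cells, which is 1.47-fold (adjusted p = 0.0201, edgeR). In recBRM-K804R-V5 cells it was 0.41 ± 0.13 and missed the threshold (adjusted p = 0.0800, edgeR). Against control and BRM-depleted cells together, both lines were 1.42-fold higher in Ctr1A RNA (log2 0.50 ± 0.09, adjusted p = 0.00524, edgeR). The call in recBRM-V5 cells was lost without filtering low counts (adjusted p = 0.0651) and when the 4 libraries compared were fitted alone (adjusted p = 0.0954). It was also lost without any single one of the control or BRM-depleted libraries (adjusted p between 0.0597 and 0.153).

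Ctr1B, the importer gene of copper-scarce conditions, was rare in all libraries. It had 12 and 15 counts in control cells, 9 and 15 after depletion of BRM, 47 and 39 with recBRM-V5 and 51 and 62 with recBRM-K804R-V5. The groups with recombinant protein lay above the groups without it in every library. In CPM, Ctr1B rose from 1.55 ± 0.396 in control cells to 5.57 ± 0.0372 in recBRM-V5 cells and to 7.24 ± 3.03 in recBRM-K804R-V5 cells (SD, n = 2). The spread in recBRM-K804R-V5 cells comes from libraries at 5.09 and 9.38 CPM, and this range encloses both recBRM-V5 libraries. Relative to control cells, Ctr1B was 3.60-fold higher with recBRM-V5 (log2 1.85 ± 0.44, adjusted p = 0.0237) and 4.62-fold higher with recBRM-K804R-V5 (log2 2.21 ± 0.43, adjusted p = 0.0169, both from edgeR). Without control replicate 1 or 2, neither call on Ctr1B held (adjusted p between 0.0749 and 0.150), and the call in recBRM-K804R-V5 cells was also lost without replicate 2 of that line (log2 1.72, adjusted p = 0.0823). After ZnT35C, this was the second largest fold change of a member in either comparison.

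ATP7, the copper pump, was at 55.9 and 65.9 CPM in control cells and at 64.6 and 57.4 CPM in BRM-depleted cells. Expression of recBRM-V5 went with 79.3 and 114.5 CPM, and that of recBRM-K804R-V5 with 117 and 125 CPM. The recombinant libraries were again the 4 highest, but the recBRM-V5 pair was spread widely. The rise was 1.98-fold in recBRM-K804R-V5 cells (log2 0.99 ± 0.20, adjusted p = 0.0179, edgeR) and 1.59-fold in recBRM-V5 cells (log2 0.67 ± 0.20, adjusted p = 0.0498, edgeR). The second call lay at the threshold. It was lost with limma-voom (adjusted p = 0.0583), with library size alone as the scaling (adjusted p = 0.0747), with edgeR's robust option (adjusted p = 0.0510), and with only the 4 libraries compared in the fit (adjusted p = 0.159). A replicate block also ended the call (edgeR, adjusted p = 0.0595). Over the alternatives apart from left-out libraries, its adjusted p ranged from 0.0268 to 0.159. Among the fits with 1 library left out, the call held only without recBRM-V5 replicate 1. Without recBRM-V5 replicate 2, the log2 fold change dropped to 0.38 from 0.67. The call on ATP7 in recBRM-K804R-V5 cells was lost without any single control or recBRM-K804R-V5 library (adjusted p between 0.0581 and 0.143).

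Ccs, which hands copper to Sod1, was called in none of the comparisons. Its level was 21.8 and 18.1 CPM in control cells, 20.9 and 14.3 CPM in BRM-depleted cells, 16.4 and 13.6 CPM in recBRM-V5 cells and 21.8 and 17.6 CPM in recBRM-K804R-V5 cells. The recBRM-V5 libraries lay below the control libraries but overlapped the BRM-depleted ones. The log2 fold change of both lines against the other cells was -0.12 ± 0.18 (adjusted p = 0.644, edgeR). In recBRM-V5 cells against control cells it was -0.41 ± 0.25 and not called (adjusted p = 0.313, edgeR). Its sign in the contrast of both lines depended on BRM-depleted replicate 1, without which it was 0.02.

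MTF-1, the sensor, was at 71.1 and 79.9 CPM in control cells and at 79.5 and 85.0 CPM in BRM-depleted cells. The recBRM-V5 libraries were at 85.2 and 116 CPM, and the recBRM-K804R-V5 libraries at 107 and 112 CPM. The lowest recombinant library, recBRM-V5 replicate 1, was only just above the highest BRM-depleted library. Neither line alone passed the test against control cells, with log2 fold changes of 0.41 ± 0.17 in recBRM-V5 cells (adjusted p = 0.142, edgeR) and 0.54 ± 0.17 in recBRM-K804R-V5 cells (adjusted p = 0.0882, edgeR). Single recBRM-V5 libraries decided this. Without replicate 1 the value in recBRM-V5 cells was 0.62 and called (adjusted p = 0.0250), and without replicate 2 it was 0.17 (adjusted p = 0.462). The value in recBRM-K804R-V5 cells was called without either of them (adjusted p = 0.0245 and 0.0235). The contrast of both lines gave 1.33-fold (log2 0.41 ± 0.12, adjusted p = 0.0368, edgeR). This call was lost with library size alone as the scaling (adjusted p = 0.0721) and, among the 8 libraries, without any of them but recBRM-V5 replicate 1 (adjusted p between 0.0622 and 0.137).

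**Figure D3:**
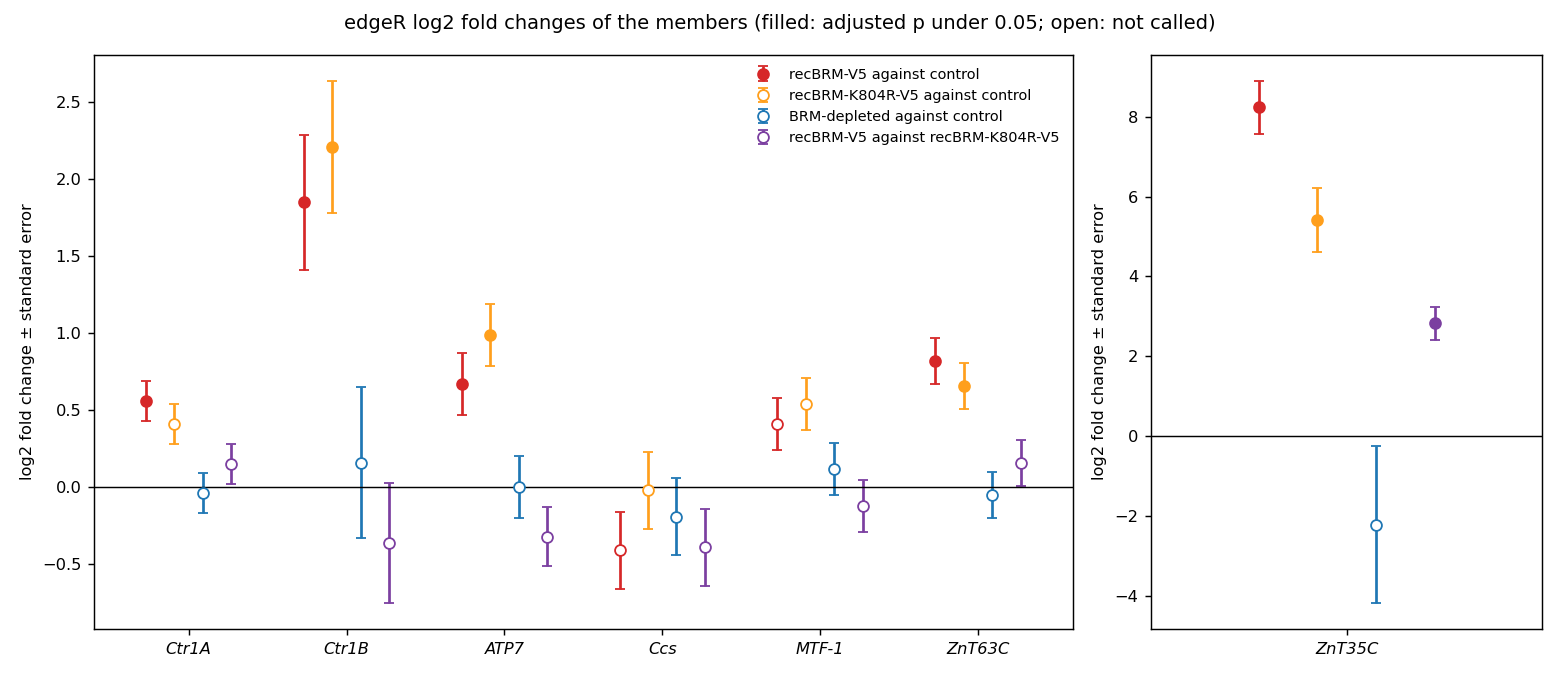
Log2 fold changes of the 7 members in 4 comparisons, with standard errors as bars. The y axes give log2 fold change, ZnT35C has its own axis, filled points have an adjusted p under 0.05 in edgeR's quasi-likelihood test and open points were not called. The points of recBRM-V5 and recBRM-K804R-V5 against control lie above 0 for all members but Ccs, and BRM-depleted against control is open throughout. The fitted values of ZnT35C against control rest on 0 and 1 count and are not bounds.

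The zinc transporter gene ZnT35C had the sharpest pattern of the members. Its counts were 0 and 1 in control cells, 0 and 0 in BRM-depleted cells, 140 and 190 in recBRM-V5 cells and 27 and 23 in recBRM-K804R-V5 cells. In CPM, the recBRM-V5 libraries were at 16.7 and 27.0 and the recBRM-K804R-V5 libraries at 2.70 and 3.48. RNA of this gene was thus detected in both recombinant lines and at or below the floor of 3 counts in all 4 other libraries. Set against the 1 count of the control libraries, ZnT35C RNA was 354 times as high in recBRM-V5 cells, with a 95% counting interval of 63.2 to 14044, and 51.2 times as high in recBRM-K804R-V5 cells, with an interval of 8.78 to 2062. For BRM-depleted cells, a floor of 3 counts over the group was used. ZnT35C RNA was 92.2 times this floor in recBRM-V5 cells and 13.3 times this floor in recBRM-K804R-V5 cells. The intervals cover counting error only, and the ratios to the floor leave out the counting error of the recombinant libraries. Both ratios to control cells rest on the 1 count of control replicate 2. The fitted log2 fold change, which is no bound, was 7.30 without control replicate 1 and 10.42 without control replicate 2 in recBRM-V5 cells. In recBRM-K804R-V5 cells it was 4.48 and 7.59, and the call was lost in the first of these fits (adjusted p = 0.0569, edgeR). Since ZnT35C entered the test only through the libraries in which it is high, its calls against control and BRM-depleted cells are no more than a restatement of these counts.

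ZnT63C, its relative, was abundant in all cells. Control cells were at 106 and 99.97 CPM, BRM-depleted cells at 99.6 and 100.2 CPM, recBRM-V5 cells at 167 and 197 CPM and recBRM-K804R-V5 cells at 148 and 178 CPM. The rise was 1.76-fold in recBRM-V5 cells (log2 0.82 ± 0.15, adjusted p = 0.00935, edgeR) and 1.58-fold in recBRM-K804R-V5 cells (log2 0.66 ± 0.15, adjusted p = 0.0299, edgeR). The first call was lost without control replicate 1 or 2 (adjusted p = 0.0610 and 0.0872), and the second without any single control or BRM-depleted library or recBRM-K804R-V5 replicate 2 (adjusted p between 0.0791 and 0.202). Both lines together were 1.70-fold above the other cells (adjusted p = 0.00183, edgeR), and this call held in each fit with 1 library left out.

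In the comparison of BRM-depleted with control cells no member passed the test. The targeted gene brm, at log2 -1.32 ± 0.26, was not called either, so that this result does not show the members unchanged. edgeR called 0 members, 0 had an unadjusted p under 0.05, and DESeq2 and limma-voom called 0 as well. Of all 8165 genes edgeR called 0%, with 378 genes at an unadjusted p under 0.05, and DESeq2 called 20 genes. edgeR called 44 genes when only these 4 libraries were fitted and 66 without the filter on low counts, with 0 members among them. The median log2 fold change of the members was -0.04. Leaving out ZnT35C, for which there was only 1 count in both groups, the largest change was Ccs at -0.19 ± 0.25 (adjusted p = 0.890, edgeR). Ctr1A, at -0.04 ± 0.13, and ZnT63C, at -0.05 ± 0.15, had the narrowest errors of the members, and MTF-1 was at 0.12 ± 0.17. No member had all BRM-depleted libraries on one side of the control libraries, beside 22% of all genes with them above and 22.1% with them below.

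With dsRNA against BRM in both arms, recBRM-V5 cells exceeded BRM-depleted cells in the same 5 members as above, beside 11.4% of all genes called higher and 8.1% called lower. ZnT35C is counted here and in the next comparison, although its direction was fixed by the filter on low counts. The log2 fold changes of the others were 0.60 ± 0.13 for Ctr1A, 1.69 ± 0.44 for Ctr1B, 0.67 ± 0.20 for ATP7 and 0.86 ± 0.15 for ZnT63C. For recBRM-K804R-V5 cells, the same 4 members as against control cells passed, beside 6.87% of all genes called higher and 4.85% called lower. Their log2 fold changes were 2.05 ± 0.44 for Ctr1B, 0.99 ± 0.20 for ATP7 and 0.71 ± 0.15 for ZnT63C, and ZnT35C was at 0 counts in the BRM-depleted libraries. Ctr1A was close to the threshold at 0.45 ± 0.13 (adjusted p = 0.0574, edgeR). These comparisons share the recombinant libraries with those against control cells. With library size alone as the scaling, the calls over all genes in recBRM-V5 against BRM-depleted cells shifted from 934 higher and 661 lower to 790 higher and 899 lower, and ATP7 was no longer called (adjusted p = 0.0791). ATP7, at an adjusted p of 0.0488 in this comparison, was also lost with RLE size factors (adjusted p = 0.0509), edgeR's robust option (adjusted p = 0.0502), limma-voom (adjusted p = 0.0626) and a fit of the 4 libraries alone (adjusted p = 0.111). Ctr1A was lost in that last fit as well (adjusted p = 0.0586). Where leaving out a library left 1 member, that member was ZnT35C. The 5 members became 1 without BRM-depleted replicate 1 or 2 and 3 without control replicate 2 or recBRM-V5 replicate 2. The 4 members became 0 without BRM-depleted replicate 1 or 2 and 1 without recBRM-K804R-V5 replicate 2.

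The comparison of the 2 recombinant lines holds copper and dsRNA against BRM alike. The lines differ in the protein expressed and in being separately made. How far endogenous brm was depleted in each line cannot be read, since the brm row also counts the recombinant RNA. A single member passed, ZnT35C, beside 2.51% of all genes called higher in recBRM-V5 cells and 2.23% called lower. ZnT35C RNA was 7.10-fold higher in recBRM-V5 cells than in recBRM-K804R-V5 cells (log2 2.83 ± 0.41, adjusted p = 0.0127, edgeR), and the libraries did not overlap. Leaving out either recBRM-K804R-V5 replicate 1 or 2 ended the call (adjusted p = 0.103 and 0.0568), while the log2 difference stayed between 2.44 and 3.14 over all left-out libraries. The brm RNA itself differed 10.1-fold between these lines, as given above, and its part in the difference was not tested. The 4 metallothionein genes tested were also higher in the means of recBRM-V5 cells, but none was called between the lines. MtnB was at log2 1.91 ± 0.52 (adjusted p = 0.0990), MtnD at 0.61 ± 0.19 (adjusted p = 0.152), MtnE at 0.71 ± 0.36 (adjusted p = 0.364) and MtnA at 0.42 ± 0.29 (adjusted p = 0.488, all from edgeR).

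The other 6 members were not called between the lines. Ctr1A differed by log2 0.15 ± 0.13 and ZnT63C by 0.16 ± 0.15, both higher in recBRM-V5 cells. ATP7 was at -0.32 ± 0.19, Ctr1B at -0.36 ± 0.39, Ccs at -0.39 ± 0.25 and MTF-1 at -0.12 ± 0.17, all lower in recBRM-V5 cells. Adjusted p-values of these 6 lay between 0.437 and 0.765 (edgeR). The libraries of the lines did not overlap for Ctr1A and ZnT35C, both higher in recBRM-V5 cells, and for ATP7 and Ccs, both lower, whereas 21% and 20.6% of all genes did so in these directions. With 2 libraries a group, differences of this size could not be separated from the spread, which does not show that the lines were alike.

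Other metal genes were counted by lists, in the contrast of both recombinant lines against control and BRM-depleted cells, in which 15.4% of all genes were called higher and 12.2% lower. Of the 6 metallothioneins, the small cysteine-rich proteins that bind excess copper and zinc, 4 were tested and called higher. Of these, MtnA alone was abundant enough to be tested without the recombinant libraries, so that the direction of the other 3 was fixed by the filter on low counts. MtnA was 35.7-fold higher (log2 5.16 ± 0.24, adjusted p = 2.66e-05, edgeR). MtnD and MtnE had 0 counts in all 4 libraries without recombinant protein, and 424 to 817 and 129 to 379 counts in the 4 with it. MtnB had 1 count in control replicate 1, 0 in the other 3 of these libraries, 648 and 538 in recBRM-V5 libraries and 316 and 57 in recBRM-K804R-V5 libraries. MtnC and MtnF, with at most 1 count in any library, were not tested.

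Of the other ZnT exporters, 1 of 4 tested rose, beside 15.4% of all genes. This was ZnT77C, with a log2 fold change of 1.73 ± 0.21 (adjusted p = 0.00103, edgeR), while ZnT41F, ZnT49B and ZnT86D lay between -0.16 and 0.45 and were not called. Together with the members, 3 of the 6 ZnT genes tested therefore rose. However, 1 of these is ZnT35C, whose direction was fixed by the filter on low counts. Of the ZIP family, most of whose members bring zinc into the cytoplasm, 2 of 7 tested rose and 1 fell, beside 15.4% and 12.2% of all genes. The importer gene foi rose by 1.61 ± 0.15 (adjusted p = 0.000327) and Zip99C by 0.86 ± 0.16 (adjusted p = 0.00612) on the log2 scale. Zip71B was at -1.39 ± 0.35 (adjusted p = 0.0205, all from edgeR), with 3 to 24 counts per library. Values below are for recBRM-V5 and recBRM-K804R-V5 cells in this order. Zip99C was called against control cells (1.21 and 1.22) but not against BRM-depleted cells (0.51 and 0.51). Zip71B was called against BRM-depleted cells (-2.27 and -1.77) but not against control cells (-1.01 and -0.51). The call on foi was made in all of these comparisons.

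Among copper chaperones and copper enzymes, 2 of 7 tested rose and 2 fell, again beside 15.4% and 12.2% of all genes. Cox17, which carries copper to mitochondria, rose by 1.12 ± 0.22 on the log2 scale (adjusted p = 0.00876, edgeR). The extracellular superoxide dismutase Sod3 was at -1.10 ± 0.28 (adjusted p = 0.0225) and the copper enzyme gene Tbh, which makes octopamine, at -0.82 ± 0.25 (adjusted p = 0.0423, both from edgeR). Sod1, the client of Ccs, was at 0.74 ± 0.36 and was not called (adjusted p = 0.170, edgeR). Atox1, the chaperone that passes copper to ATP7, was at 0.17 ± 0.17 (adjusted p = 0.490, edgeR). Neither of the chaperones Ccs and Atox1 therefore passed the test in this contrast. Of 9 genes of iron and manganese handling, 4 rose and 1 fell, beside the same shares of 15.4% and 12.2%. The largest called changes were those of the mitochondrial iron carrier mfrn at 0.65 ± 0.14 (adjusted p = 0.0110), the metal transporter Mvl at 0.64 ± 0.17 (adjusted p = 0.0260) and Tsf2 at -0.48 ± 0.12 (adjusted p = 0.0171, all from edgeR).

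**Figure D4:**
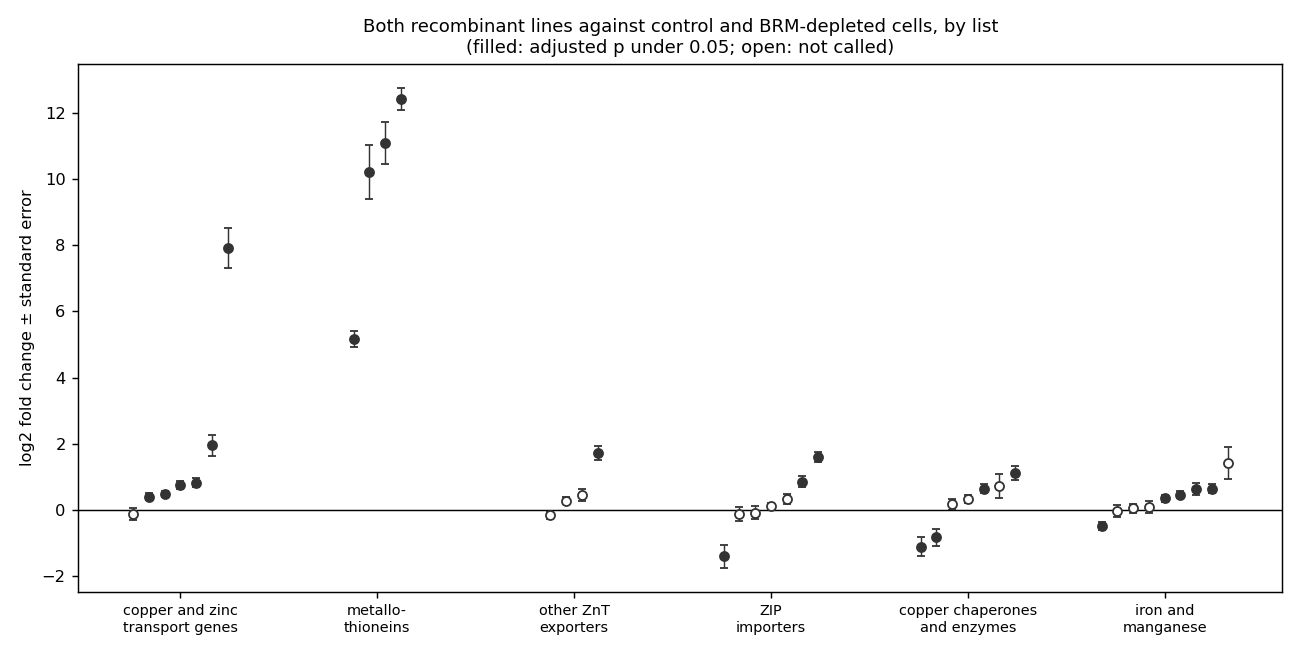
Log2 fold changes of the metal genes in both recombinant lines against control and BRM-depleted cells. The y axis gives log2 fold change, bars are standard errors, each point is 1 gene, and filled points have an adjusted p under 0.05 in edgeR's quasi-likelihood test. The members show 6 filled points above 0 and Ccs open, the metallothioneins MtnB, MtnD and MtnE lie highest, followed by the member ZnT35C and by MtnA, and the other lists hold filled points on both sides of 0 except the ZnT exporters. Fitted values of genes with 0 or 1 count in control and BRM-depleted cells (ZnT35C, MtnB, MtnD and MtnE) are not bounds.

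For each member called in at least 1 comparison, the 3 tested genes with the most similar log2 CPM over the 8 libraries were looked up by Pearson's r. The libraries fall into those with and without recombinant protein, so that any gene that differs between these groups has a high r, and the values are a description only. For Ctr1A they were CG18528 (0.995), CG8870 (0.992) and SPR (0.991), and for Ctr1B they were Git (0.991), CG14982 (0.980) and robo2 (0.978). ATP7 was matched most closely by Gapdh2 (0.986), a glycolytic enzyme gene, Snx21 (0.984) and prtp (0.983). For MTF-1 the list was NUCB1 (0.987), SNF4Agamma (0.980) and NAT1 (0.975). ZnT35C was nearest to the cytochrome P450 gene Cyp4p3 (0.999), which had 2 to 5 counts in each library without recombinant protein, 105 and 134 in recBRM-V5 libraries and 31 and 27 in recBRM-K804R-V5 libraries. CG13272 (0.994) and CG9812 (0.992) came next. ZnT63C was nearest to slgA (0.996), the proline dehydrogenase gene, to cnc (0.995), the activator of antioxidant genes, and to the glutathione S-transferase gene GstE8 (0.992).

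Endogenous BRM over the members was read from the ChIP-seq table as the ratio of IP to Input signal in each replicate. A ratio of at least 1.1 was the study's limit for a bound gene, set there on average enrichment over the gene body and short flanks. Here it is applied to the deposited signal of each replicate, so that counts need not equal those of the study. It was reached by 5 members in replicate 1, beside 15.9% of the 13557 genes whose Input signal was 0.5 or more. In replicate 2 it was reached by 2 members, beside 25.8%. Only Ctr1B reached it in both replicates, beside 1.37% of all genes, and also in the mean of both, beside 15.6%. A mean of at least 1.0 was reached by 5 members, beside 38.3%. The replicates did not rank genes alike, since the log2 ratios of all 13924 genes in replicates 1 and 2 had a Pearson's r of -0.275. With limma on log2(signal + 0.1), 0 members had an adjusted or an unadjusted p under 0.05, and of all genes 0.108% had such an unadjusted p. This fit treats IP and Input as unpaired, although their deviations between replicates correlated across the 13924 genes (Pearson's r = 0.69). With the replicate number as a block, 0 members and 0.316% of all genes had an unadjusted p under 0.05, and Ctr1B was at 0.23 ± 0.13 (limma, unadjusted p = 0.186, adjusted p = 1.00). With 2 replicates, neither fit shows that IP and Input were alike over the members.

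Ctr1B stood at 1.18 in both replicates and was above 90.0% and 81.7% of all genes. Ccs was also stable, at 0.912 and 0.905, which is close to the median of all genes at 0.937 and 0.934. The other copper genes moved between replicates. Ctr1A was at 1.24 and 0.601, so that it passed from above 93.2% of genes to above 5.92%, and Ctr1C was at 0.743 and 1.29. ATP7 was at 1.16 and 1.03, and it was the only other member above 1.0 in both replicates, beside 6.99% of all genes. MTF-1 was at 1.11 and 0.963, ZnT35C at 0.919 and 1.07, and ZnT63C at 1.33 and 0.806. The largest log2 difference of IP over Input was that of Ctr1B at 0.23 ± 0.15 (limma, unadjusted p = 0.201, adjusted p = 1.00). The table holds coverage without read numbers, so that the depth behind these ratios is unknown.

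**Figure D5:**
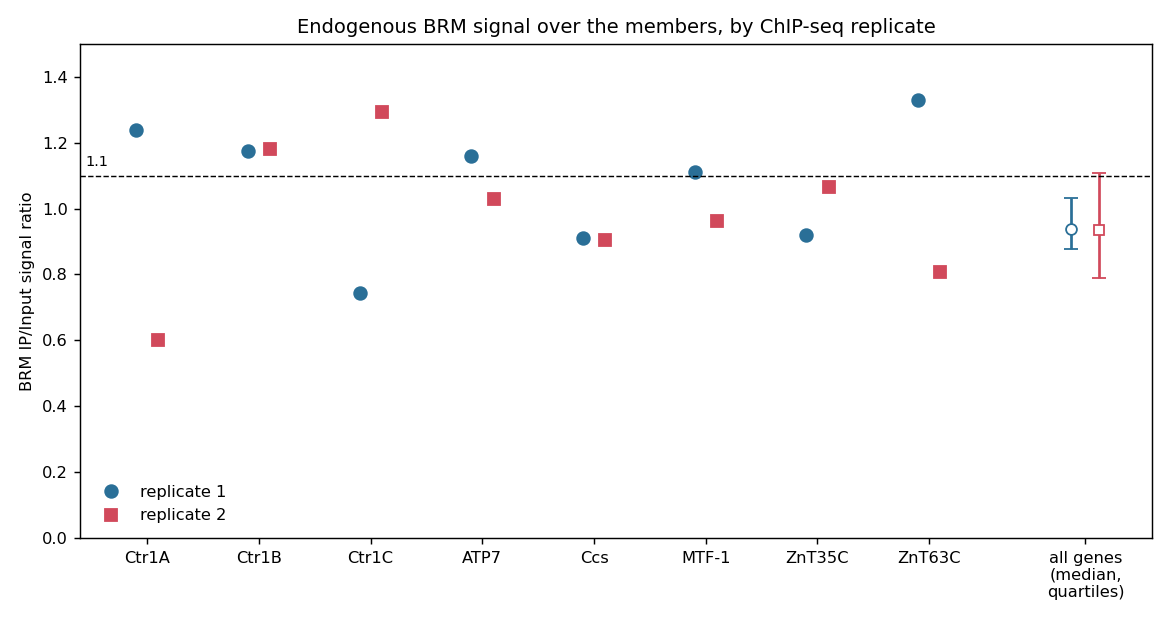
BRM IP/Input signal ratio of the 8 members in ChIP-seq replicates 1 and 2. The y axis gives the ratio, the dashed line is at 1.1, and the open symbols at the right give the median and quartiles of 13557 genes. Ctr1B lies above the line in both replicates, Ccs lies near the median of all genes, and Ctr1A, Ctr1C, MTF-1 and ZnT63C lie above the line in 1 replicate and below 1.0 in the other.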

How the data were processed

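The authors mapped RNA-seq reads with TopHat2 and counted them per gene with HTSeq. The deposited counts are not normalized, come from poly(A) libraries and hold no coordinates. The submitters' processing notes name dm3, and the study's methods name BDGP6. Positions came from the BDGP6 annotation. For ChIP-seq, the authors aligned reads with Bowtie and averaged coverage per gene with ngs.plot, so the deposited table holds signal. Symbols were found for 95.7% of the RNA-seq and 96.1% of the ChIP-seq identifiers. The list genes ZnT33D, Zip42C.1, Phm, vas and nos had no row matched in the RNA-seq table and were not used there.

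All 8 RNA-seq libraries were fitted together by edgeR 4.0.16 under R 4.3.3, using filterByExpr, TMM scaling, the quasi-likelihood test and Benjamini-Hochberg adjustment. ChIP-seq values were tested with limma 3.58.1 on log2(signal + 0.1). The F statistic and the log2 fold change gave each standard error. CPM use TMM factors and total counts. Alternatives were DESeq2 1.42.0, limma-voom, other scalings, filters and thresholds, leaving out single libraries and a replicate block. Upstream sequence and matches were read with Python 3.11.15. Scripts were tested on simulated data. Members, lists and tests were chosen with earlier results of these data known. Named were all members, brm, MtnA, at most 3 called genes of each list with the largest change, and the 3 genes most similar to each called member. Sod1, Atox1, MtnB, MtnD and MtnE counts, the uncalled ZnT genes and the markers were named after their values were seen. A planned comparison of protein sequences was not run. Nothing in the labels says that replicates came from separate days or batches, and p-values measure the spread between these libraries.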

Additional observations from a re-analysis of the deposited data

Results flagged for a closer look

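A single value met a rule for a closer look. ZnT35C RNA differed between the 2 recombinant lines, which share copper and dsRNA against BRM, by 2.83 on the log2 scale (standard error 0.41), higher in recBRM-V5 cells. The difference itself was tested (edgeR quasi-likelihood test, adjusted p = 0.0127 over all genes tested) and was seen in 2 of 2 libraries of each line. It was not called without recBRM-K804R-V5 replicate 1 or 2.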

How the results depend on the processing

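The rises of the members kept their direction in every fit, but most calls are near the threshold for 2 libraries a group. Leaving out 1 library gave 1 to 6 members called in recBRM-V5 against control cells, 0 to 5 in recBRM-K804R-V5 against control cells, 0 to 1 between the lines, 5 to 6 for both lines against the other cells, 1 to 6 in recBRM-V5 and 0 to 5 in recBRM-K804R-V5 against BRM-depleted cells, and 0 to 0 in BRM-depleted against control cells. Fitting only the libraries compared left 3 members for recBRM-V5 against control and 3 against BRM-depleted cells. With an adjusted p under 0.01, the members called were 2 and 2 in these comparisons, 1 and 1 for recBRM-K804R-V5, and 0 between the lines. At an adjusted p under 0.05, a log2 fold change of 1 or more in size was required as a separate setting. It left 2 members in each comparison of a line, or of both lines, with other cells. ZnT35C, whose direction was fixed by the filter on low counts, was called at both of these settings against other cells. It was also the member left where a line against other cells kept only 1. The number of members with an IP/Input of at least 1.1 was 3 after dividing each library by its median, 2 without replicate 1 and 5 without replicate 2, and 5 with a limit of 1.0. The longer window raised the members with a match from 2 to 5.

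Sign changes were confined to values that were not called. Over left-out libraries, Ccs ranged from -0.19 to 0.12 in recBRM-K804R-V5 against control, from -0.49 to 0.06 in BRM-depleted against control, from -0.25 to 0.02 for both lines, from -0.48 to 0.07 in recBRM-V5 and from -0.08 to 0.46 in recBRM-K804R-V5 against BRM-depleted cells. In BRM-depleted against control, Ctr1A ranged from -0.09 to 0.02, ATP7 from -0.11 to 0.13, Ctr1B from -0.22 to 0.45 and ZnT35C from -3.10 to 0.00. Between the lines, MTF-1 ranged from -0.37 to 0.08 and Ctr1B from -0.75 to 0.12. The log2 IP/Input of single replicates ranged from -0.73 to 0.31 for Ctr1A, -0.43 to 0.37 for Ctr1C, -0.05 to 0.15 for MTF-1, -0.12 to 0.09 for ZnT35C and -0.31 to 0.41 for ZnT63C, and dividing by the median turned Ctr1C to 0.05 and ZnT35C to 0.06. The cause was not tested. Of 979 values of single genes, 842 kept their direction and side of the threshold.

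Replicate numbers do not mark the same deviation in all groups. Those of same-numbered libraries correlated at 0.626 for control with recBRM-V5 and 0.235 for BRM-depleted with recBRM-K804R-V5, and from -0.32 to -0.267 in the other 4 pairs of groups, a pattern that a block on the number does not model. With a replicate block, ATP7 was lost in recBRM-V5 against control (log2 0.66, adjusted p = 0.0595) and against BRM-depleted cells (log2 0.65, adjusted p = 0.0619), giving 4 members in each, and no other call on a member changed. The calls over all genes with the block were 1283 and 729 for the lines against control cells, in place of 1483 and 857.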
